A study of Homo sapiens with 6 samples.

Results

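The enzymes that write and remove methyl groups on histone H3K27 and on DNA were measured by RNA-seq in hFOB 1.19, an osteoblast line of human fetal origin, grown here at 34 °C, where its heat-sensitive SV40 T antigen is active. The 10 genes were chosen by name out of 35639 in the deposited table: EZH2, EZH1, EED and SUZ12 of Polycomb repressive complex 2 (PRC2), the demethylases KDM6A and KDM6B, the DNA methyltransferases DNMT1 and DNMT3A, and the oxidases TET2 and TET3. The cells had been infected with a lentiviral vector that was empty (EV) or carried an HA-tagged histone H3.3, either unchanged (H3.3-WT, here WT) or with the substitution found in giant cell tumour of bone (H3.3-G34W, here G34W), and were sorted in bulk for the vector's fluorescent reporter, so that each group was a mixed population. The comparison of G34W with WT asks what the substitution does to transcription beyond extra H3.3, and the comparisons with EV give the effect of adding either histone. Each of the 3 groups had 2 libraries.

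The groups follow the sample titles and column names. The genotype field of the same labels lists WT and G34W the other way round, and if that field held, the sign of every difference between them would turn and the values given against EV would change places. The added histone was encoded by a Drosophila gene, so no human gene in the table checks these labels directly. The study's methods say that the cells were taken in duplicate and define replicates in general as biological, meaning separate wells within an experiment, but neither they nor the labels say that these libraries came from separate infections. The p-values therefore measure only the spread between these libraries.

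PRC2 places methyl groups on H3K27 and keeps developmental genes silent, and the KDM6 enzymes take those groups off. DNMT1 copies DNA methylation onto newly made strands, DNMT3A and DNMT3B set it on unmethylated DNA, and the TET enzymes oxidise it as a step towards its removal. In cells of the osteoblast lineage EZH2 is known as a brake on differentiation, and KDM6A and KDM6B as enzymes that counter it.

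Values are normalised estimated counts as deposited, without a read total for any library. Their sums were 41985190 in EV replicate 2, 40778682 and 48024590 in the WT libraries, and 38821143 and 44687077 in the G34W libraries. EV replicate 1 summed to 157595150 and was listed at 0 for 28688 genes (80.5%), including 7 of the 10 enzymes, and it was left out, so EV rests on 1 library that is assumed to vary like the other groups. G34W replicate 1 also stood apart from the rest. Its Pearson correlations with the other 4 libraries, taken across genes, which are not independent replicates, ran from 0.906 to 0.916, against 0.962 to 0.974 among those others. Differences that rest on this library are therefore given with and without it.

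Markers fixed as lists were read in the same libraries. The 10 osteoblast-lineage genes summed to 222885 in EV replicate 2, 205049 and 216633 in WT, and 193706 and 264551 in G34W. COL1A2 was the most abundant of them in each of these libraries, and with SPARC and COL1A1 it held most of each sum. The sums therefore say little about the other members. SP7 lay between 1.43 and 6.03, and IBSP was listed at 0 in the 4 WT and G34W libraries. BGLAP measured 5.55 in EV replicate 2, 44.9 and 39.3 in WT, and 4.08 and 27.4 in G34W. ALPL measured 428 in EV replicate 2, 245 and 236 in WT, and 1216 and 107 in G34W. The 12 pluripotent stem cell genes summed to 557 in EV replicate 2, 424 and 530.2 in WT, and 54755 and 525 in G34W. All 12 were above 0 in the WT and G34W libraries, and PRDM14 was listed at 0 in EV replicate 2. POU5F1 led in G34W replicate 1, at 19441, whereas LIN28B led in EV replicate 2, WT and G34W replicate 2. The 18 proliferation genes, all above 0 in the 5 libraries, summed to 210512 in EV replicate 2, 215836 and 215511 in WT, and 185375 and 218097 in G34W. G34W replicate 1 was thus the library with high pluripotency markers and, on the deposited scale, the lowest proliferation sum. Its sum over all genes, 38821143, was the lowest too, so the rank is given for unscaled sums only. Whether RNA of other cells was present in this library was not tested, which bears on each value given for it. The 7 myeloid and osteoclast genes stayed low, with sums of 286 in EV replicate 2, 315 and 342 in WT, and 416 and 239 in G34W, and AIF1 was listed at 0 in EV replicate 2, WT replicate 2 and G34W replicate 2. The part of these markers in the results that follow was not tested.

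EZH2, the main catalytic subunit of PRC2 in dividing cells, lies on chromosome 7 from 148807383 to 148884291 of GRCh38.p14 (ENSG00000106462). It measured 2167 in EV replicate 2, 2379 and 2337 in WT, and 1649 and 2369.9 in G34W. G34W replicate 1 was the low library, and its partner lay between the WT values, so the groups overlapped. The log2 difference between G34W and WT, on the log2(value + 1) scale used throughout, was -0.25 (SE 0.27), and it was 0.01 without G34W replicate 1. In such bulk samples, fewer cells of a type and less RNA per cell cannot be told apart.

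EZH1, the catalytic subunit that remains in resting cells, lies on chromosome 17 from 42700275 to 42745040 (ENSG00000108799). Its values were 743 in EV replicate 2, 895 and 719.8 in WT, and 769 and 974 in G34W. The groups overlapped, with G34W replicate 2 the highest and WT replicate 2 the lowest of the 5. G34W differed from WT by 0.11 on the log2 scale (SE 0.30), or 0.28 without G34W replicate 1.

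EED, which binds trimethylated H3K27 and stimulates the complex, lies on chromosome 11 from 86244753 to 86287615 (ENSG00000074266). It stood at 1451 in EV replicate 2, 1342 and 1558 in WT, and 1254 and 1568 in G34W. The G34W libraries were the lowest and the highest of all, on either side of WT. The log2 difference was -0.04 (SE 0.27), and it took the other sign, at 0.12, without G34W replicate 1 and, at 0.02, when libraries were rescaled to a median ratio of 1.

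SUZ12, the scaffold that holds the complex together, lies on chromosome 17 from 31937007 to 32001038 (ENSG00000178691). Its values were 2545 in EV replicate 2, 2213 and 2150.1 in WT, and 2234 and 2637 in G34W. Both G34W libraries exceeded both WT libraries, replicate 1 by a small margin, and EV replicate 2 lay within the G34W values. The log2 difference was 0.15 (SE 0.25), or 0.27 without G34W replicate 1 and 0.03 without G34W replicate 2. SUZ12P1, a near-identical copy, measured 406 in EV replicate 2, 346 and 285 in WT, and 275 and 379 in G34W, so the division of reads between the copies leaves the SUZ12 level uncertain.

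**Figure D1:**
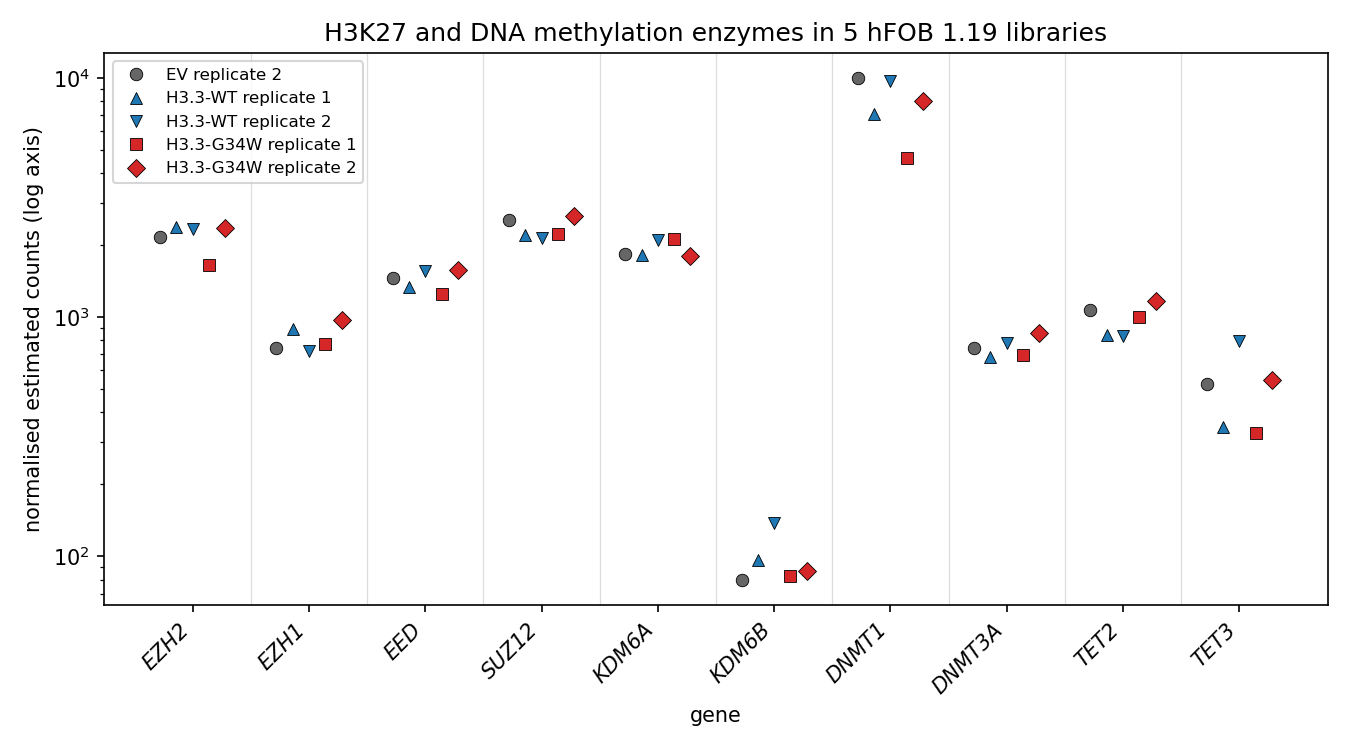
Normalised estimated counts of the 10 enzymes on a log axis, with 1 point for each of the 5 libraries, coloured by group. G34W replicate 1 is the lowest library for EZH2, at 1649, EED, at 1254, DNMT1, at 4635, and TET3, at 328. KDM6B lies far under the other genes, from 79.7 to 139.

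The balance of the catalytic subunits is a ratio within each library and does not depend on its scaling. EZH2 divided by EZH1 was 2.92 in EV replicate 2, 2.66 and 3.25 in WT, and 2.14 and 2.43 in G34W. Both G34W ratios lay under the other 3. On the log2 scale the ratio averaged 1.55 ± 0.20 (SD, n = 2) in WT and 1.19 ± 0.13 (SD, n = 2) in G34W, a difference of -0.36. Without G34W replicate 1 the difference was -0.27, and with any of these 4 libraries left out it ran from -0.51 to -0.22. The exact permutation test, two-sided, gave p = 0.333, which is the smallest p that 2 against 2 libraries allow. Per kilobase of the Ensembl canonical transcript, the EZH2 level was 5.09 times that of EZH1 in EV replicate 2, 4.64 and 5.67 times in WT, and 3.74 and 4.25 times in G34W.

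**Figure D2:**
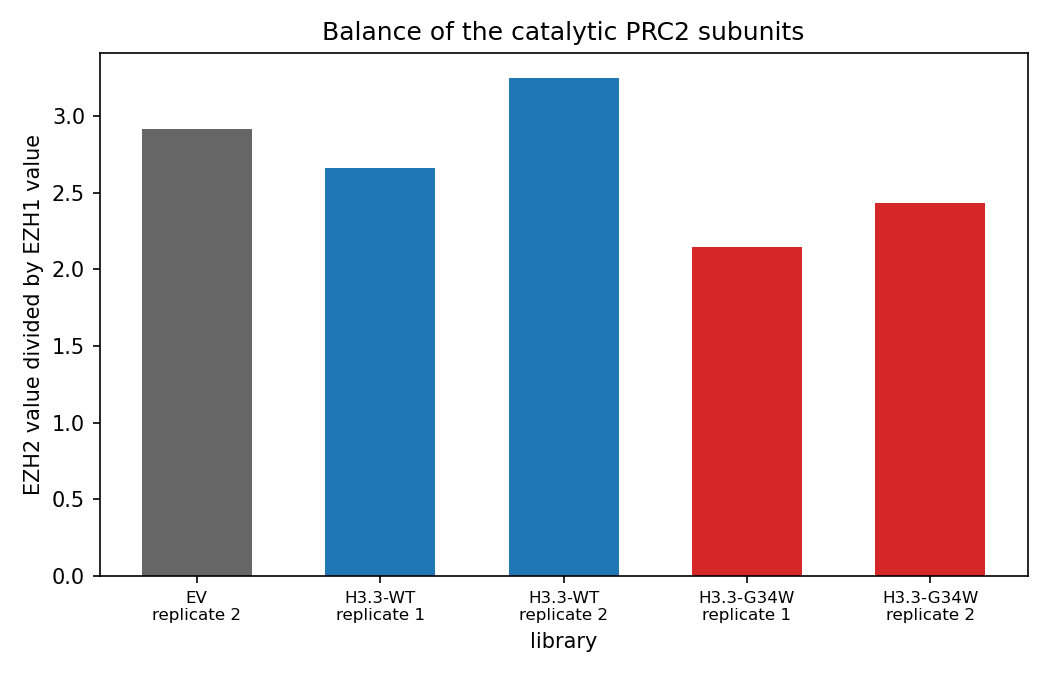
Value of EZH2 divided by that of EZH1 in each of the 5 libraries, with bars from 0 and no error bars because each bar is 1 library. The G34W bars, at 2.14 and 2.43, are shorter than those of EV replicate 2 and WT, which run from 2.66 to 3.25.

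E2F factors are known to bind promoters of genes used in dividing cells, and promoter sequences are shown for the 3 enzymes whose window held an E2F-like run of letters. RefSeq windows of 300 bases on GRCh38.p14, from 250 before to 50 after each start, were found for all 10 genes (19 windows). The E2F-like letters TTTNGCGC and TTTCCCGC, which cannot match at the same position, were searched on both strands. One or the other was present in 3 of the 19 windows, 1 each of EZH2, SUZ12 and DNMT1, and in 1182 (3.37%) of the 35116 windows of all genes. TTTNGCGC was in 1.79% and TTTCCCGC in 1.63% of all windows, with windows that held both counted in each. The EZH2 window is chr7:148884242-148884541 on the minus strand, that of SUZ12 is chr17:31936757-31937056 on the plus strand, and that of DNMT1 is chr19:10194904-10195203 on the minus strand, where the match is on the opposite strand to the gene. In G34W replicate 1 the log2 ratio to the WT mean was -0.52 for EZH2, -0.84 for DNMT1 and 0.03 for SUZ12, and it was -0.68 for TET3, whose windows held no match. Capitals mark the match, which describes the letters and shows no binding.
EZH2: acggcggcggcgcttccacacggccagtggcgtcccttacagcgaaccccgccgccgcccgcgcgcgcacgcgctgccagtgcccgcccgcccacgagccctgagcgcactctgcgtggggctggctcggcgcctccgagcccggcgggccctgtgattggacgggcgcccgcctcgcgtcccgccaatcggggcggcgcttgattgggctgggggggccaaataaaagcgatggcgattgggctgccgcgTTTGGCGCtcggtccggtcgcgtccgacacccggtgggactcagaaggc
SUZ12: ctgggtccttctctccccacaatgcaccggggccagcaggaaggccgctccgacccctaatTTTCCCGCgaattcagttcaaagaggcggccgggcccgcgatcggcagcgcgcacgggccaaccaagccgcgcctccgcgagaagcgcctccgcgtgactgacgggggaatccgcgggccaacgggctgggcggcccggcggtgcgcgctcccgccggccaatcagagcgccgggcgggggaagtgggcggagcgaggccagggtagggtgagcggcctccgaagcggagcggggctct
DNMT1: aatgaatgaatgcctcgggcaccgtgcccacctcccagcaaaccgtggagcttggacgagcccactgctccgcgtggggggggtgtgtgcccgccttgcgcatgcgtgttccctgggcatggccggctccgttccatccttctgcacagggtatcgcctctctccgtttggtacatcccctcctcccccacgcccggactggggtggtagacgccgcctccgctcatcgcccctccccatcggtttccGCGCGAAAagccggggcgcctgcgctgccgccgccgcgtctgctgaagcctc

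KDM6A, the H3K27 demethylase that works within the KMT2C and KMT2D complexes, lies on the X chromosome from 44873188 to 45112779 (ENSG00000147050). It measured 1836 in EV replicate 2, 1827 and 2108 in WT, and 2132 and 1810.3 in G34W. Of the 10 enzymes it varied least between the 5 libraries, the highest being 1.18 times the lowest, and the G34W values enclosed those of WT. The log2 difference between these groups was 0.00 (SE 0.26), or -0.12 without G34W replicate 1.

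KDM6B, the inducible enzyme of the same family, lies on chromosome 17 from 7834217 to 7854796 (ENSG00000132510). It was low everywhere, with 79.7 in EV replicate 2, 96.8 and 139 in WT, and 83.1 and 86.6 in G34W. Both G34W libraries lay under both WT libraries, and EV replicate 2 lay lower still. On the log2 scale G34W differed from WT by -0.44 (SE 0.52), and -0.42 without G34W replicate 1. It moved more with a WT library left out, to -0.70 without WT replicate 1 and to -0.19 without WT replicate 2. Its interval, from -1.61 to 0.72, was the widest of the 10.

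DNMT1, the maintenance methyltransferase, lies on chromosome 19 from 10133346 to 10194953 (ENSG00000130816). Its values were 9984 in EV replicate 2, 7055 and 9750.2 in WT, and 4635 and 7972 in G34W. G34W replicate 1 was the lowest of the 5, while replicate 2 lay between the WT libraries, so the groups overlapped. In replicate 1 its log2 ratio to the WT mean was -0.84, lower than in all but 8.12% of genes, or -0.67 after taking off the median of all genes in that library. The log2 difference between G34W and WT was -0.45 (SE 0.32), and it shrank to -0.06 without replicate 1. With G34W replicate 2 left out instead it was -0.84, and it was -0.68 without WT replicate 1 and -0.21 without WT replicate 2.

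DNMT3A, a de novo methyltransferase, lies on chromosome 2 from 25227874 to 25342590 (ENSG00000119772). It measured 742 in EV replicate 2, 679.6 and 778 in WT, and 698 and 861 in G34W. The groups overlapped, and G34W replicate 2 was the highest library. The log2 difference was 0.09 (SE 0.30), or 0.24 without G34W replicate 1.

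Its relative DNMT3B, the other de novo enzyme and a gene known for its high level in pluripotent cells, measured 541 in EV replicate 2, 515 and 458 in WT, and 13081 and 395 in G34W. G34W replicate 1 was far above the other 4 libraries, and replicate 2 was the lowest of all. DNMT3B made up 94.9% of the summed DNMT3A and DNMT3B values in G34W replicate 1. Its share was 42.1% in EV replicate 2, 43.1% and 37.04% in WT, and 31.5% in G34W replicate 2. These shares are not corrected for transcript length. Per kilobase of canonical transcript, DNMT3B measured 124.7 and DNMT3A 78.8 in EV replicate 2. In WT replicates 1 and 2 DNMT3B measured 118.7 and 105.6, and DNMT3A 72.1 and 82.6. In G34W replicates 1 and 2 DNMT3B measured 3016.8 and 91.2, and DNMT3A 74.1 and 91.4. Per kilobase, DNMT3B was thus above DNMT3A except in G34W replicate 2, where they were close. Between G34W and WT the DNMT3B log2 difference was 2.23 (SE 1.22) and turned to -0.30 without G34W replicate 1. The same library held the pluripotency marker sum of 54755, and the part of those markers in the DNMT3B value was not tested. DNMT3L, a cofactor without catalytic activity, was listed at 1.21 in EV replicate 2, at 0.294 in G34W replicate 2 and at 0 in the other 3 libraries, under the filter of a mean of 10.

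TET2, which oxidises methylcytosine, lies on chromosome 4 from 105145875 to 105279803 (ENSG00000168769). It stood at 1075 in EV replicate 2, 840.4 and 836 in WT, and 1001 and 1172 in G34W. Both G34W libraries were above the closely matched WT libraries, and EV replicate 2 lay between the G34W values. The log2 difference between G34W and WT was 0.37 (SE 0.27), the highest of the 10, and 0.48 without G34W replicate 1. WT lay lower than EV replicate 2 by a similar amount, with a log2 difference of -0.36 (SE 0.34), and G34W differed from EV by 0.01 (SE 0.34), or 0.12 without G34W replicate 1.

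TET3, of the same family, lies on chromosome 2 from 73983631 to 74135498 (ENSG00000187605). Its values were 528 in EV replicate 2, 349 and 794 in WT, and 328 and 546 in G34W. Replicate 1 was low and replicate 2 high in both groups, which overlapped, and the highest library was 2.42 times the lowest, the widest range of the 10 enzymes. The log2 difference was -0.31 (SE 0.45), or 0.05 without G34W replicate 1, and it was -0.91 without WT replicate 1 and 0.28 without WT replicate 2. TET1, the family member outside the 10 enzymes, measured 298 in EV replicate 2, 309 and 242 in WT, and 589 and 242 in G34W. It was again G34W replicate 1 that was high, and the TET1 log2 difference of 0.46 (SE 0.47) turned to -0.18 without it. Other transcripts overlap TET2, TET3 and KDM6B in RefSeq. The sources used here do not say whether quantification used the strand of the reads. The levels of these genes may therefore include reads from the overlapping transcripts.

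**Figure D3:**
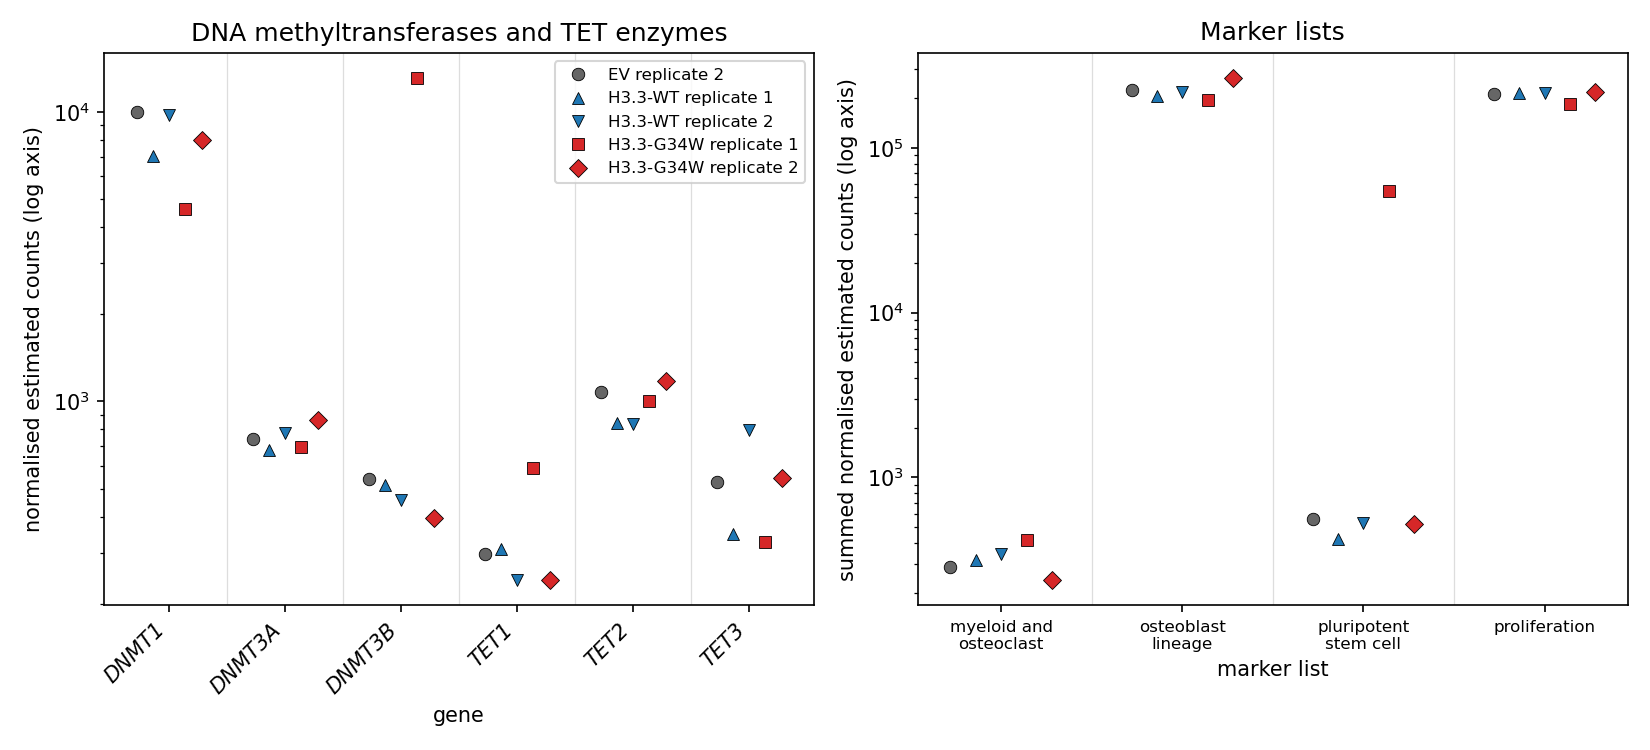
Left, normalised estimated counts of the DNA methyltransferases and TET enzymes, and right, summed values of the marker lists, both on log axes with 1 point for each of the 5 libraries. G34W replicate 1 stands alone for DNMT3B, at 13081, and for the pluripotent stem cell list, at 54755.

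Compared per kilobase of canonical transcript, as the mean over the 5 libraries, the level was highest for DNMT1 at 1494, followed by EZH2 at 822, EED at 687, SUZ12 at 524 and KDM6A at 319. EZH1 at 177, TET2 at 103, DNMT3A at 79.8, TET3 at 42.2 and KDM6B at 14.4 came after. The ranges over libraries overlapped for 3 of the 9 neighbouring pairs, DNMT1 with EZH2, EZH2 with EED and TET2 with DNMT3A. Within each of the 5 libraries the order was the same for all 9 pairs, these 3 included.

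In the limma fit to the 5 libraries, none of the 10 enzymes passed an adjusted p of 0.05 in any of the 3 comparisons, and none had an unadjusted p under 0.05. For G34W against WT, 0 of 16259 genes passed (0%), and 439 (2.70%) had an unadjusted p under 0.05. For WT against EV these were 0 (0%) and 157 (0.966%), and for G34W against EV 0 (0%) and 317 (1.95%). The enzymes' counts of 0 therefore match what all genes showed at the adjusted threshold. The 95% interval lay inside a log2 difference of 1 in either direction for 7 of the 10 enzymes between G34W and WT, the exceptions being DNMT1, KDM6B and TET3. Against EV the count was 6 for WT and 6 for G34W. The share of all genes inside this bound is not given, so nothing particular to the enzymes is read from these counts. A missed threshold does not show that the values were equal.

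By position alone, SUZ12 and TET2 had both G34W libraries above both WT libraries, 2 of 10, where 1891 of all 16259 genes (11.6%) did. KDM6B was the 1 enzyme with both below, where 2393 genes (14.7%) did. The other 7 overlapped. Rescaling the libraries added DNMT3A to those above, 3 of 10, where 13.9% of all genes were above and 14.5% below. With so few genes, nothing particular to the enzymes is read from these counts.

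The median log2 difference of the 10 enzymes between G34W and WT was -0.02, with 5 positive, against -0.06 over all genes, of which 43.1% were positive. It turned to 0.08 without G34W replicate 1, against 0.04 over all genes, and to 0.04 after rescaling, against 0.01. Between WT and EV it was -0.01, with 4 positive, against 0.02 and 52.6%. Between G34W and EV it was -0.02, with 5 positive, against -0.03 and 46.7%, and it turned to 0.11 without G34W replicate 1, against 0.06 over all genes, and to 0.02 after rescaling, against 0.01. These comparisons share libraries, and their values are set side by side without a test of likeness. DNMT1 had the lowest difference between G34W and EV, at -0.72 (SE 0.39, interval -1.59 to 0.16), or -0.32 without G34W replicate 1, -1.11 without G34W replicate 2 and -0.40 under a replicate block, and KDM6B the highest between WT and EV, at 0.53 (SE 0.63), or 0.28 without WT replicate 2. The remaining enzymes lay between -0.36 and 0.12 in WT against EV and between -0.32 and 0.22 in G34W against EV. Without G34W replicate 1 the latter lay between -0.02 and 0.39, and TET3, the lowest of them before, was at 0.05. In WT against EV, TET3 was at 0.59 without WT replicate 1 and at -0.60 without WT replicate 2, where DNMT1 was at -0.50.

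**Figure D4:**
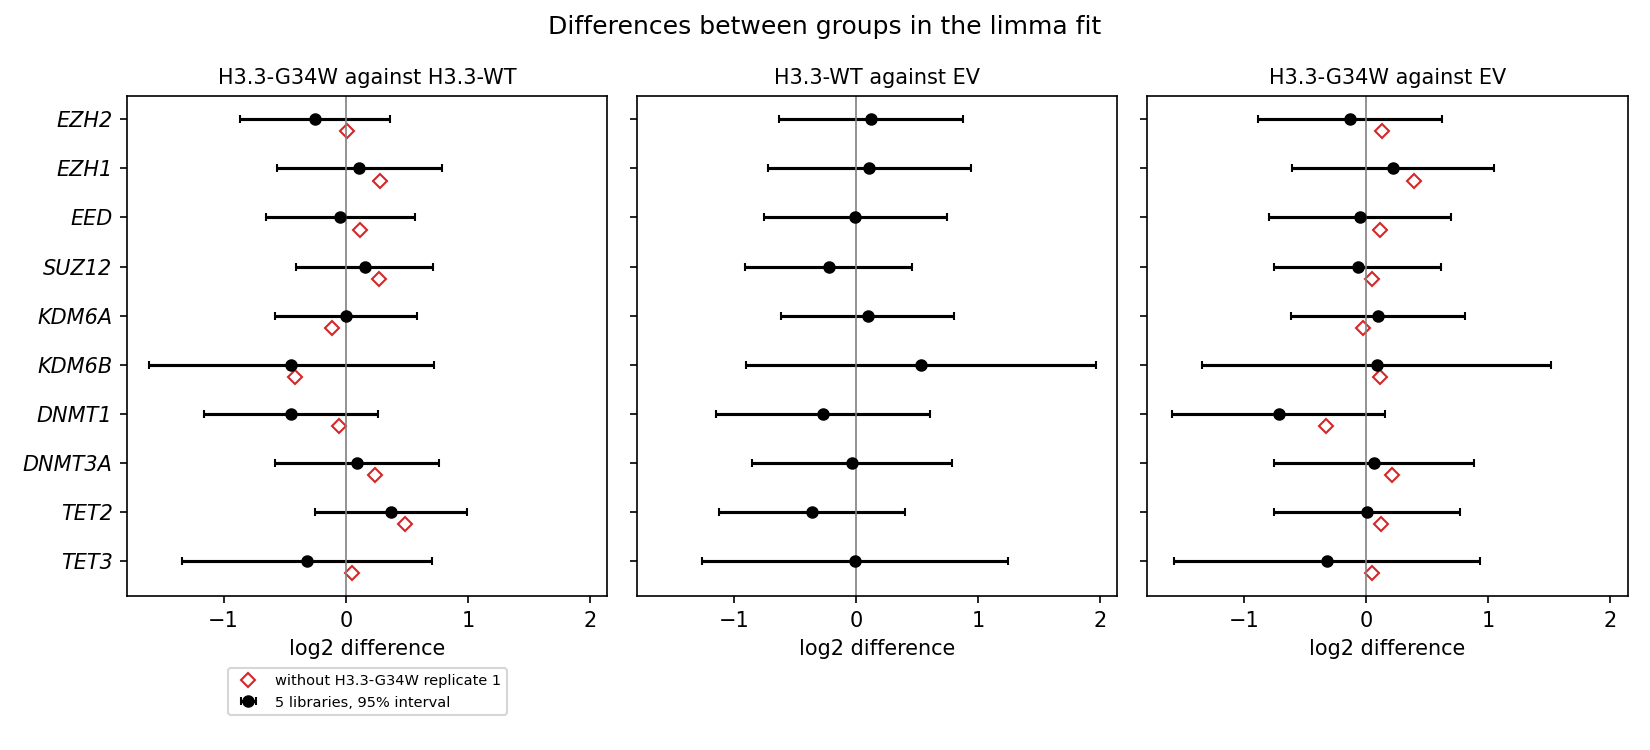
Log2 differences of the 10 enzymes in the 3 comparisons, with black points and 95% intervals from the limma fit to 5 libraries and open diamonds for the fit without G34W replicate 1. Every interval includes 0, and DNMT1 between G34W and WT moves from -0.45 to -0.06 without that library.

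Read library by library, the enzymes' median log2 ratio to the WT mean was -0.13 in G34W replicate 1, where the median of all genes was -0.17, and 0.08 in replicate 2, where it was 0.04. In replicate 1, 3 of the 10 enzymes (SUZ12, KDM6A and TET2) were above the WT mean, against 36.8% of all genes, and in replicate 2, 7 were, against 56.3%. The lowest ratios in replicate 1 were those of DNMT1 at -0.84, TET3 at -0.68, EZH2 at -0.52 and KDM6B at -0.47. In replicate 2 they were -0.06, 0.05, 0.01 and -0.42 in the same order. TET3 was also low in WT replicate 1, at -0.59, so its ratio did not set G34W replicate 1 apart. The 18 proliferation genes had a median log2 ratio of -0.23 in replicate 1 and 0.05 in replicate 2, and the part of these in the EZH2 and DNMT1 values was not tested.

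**Figure D5:**
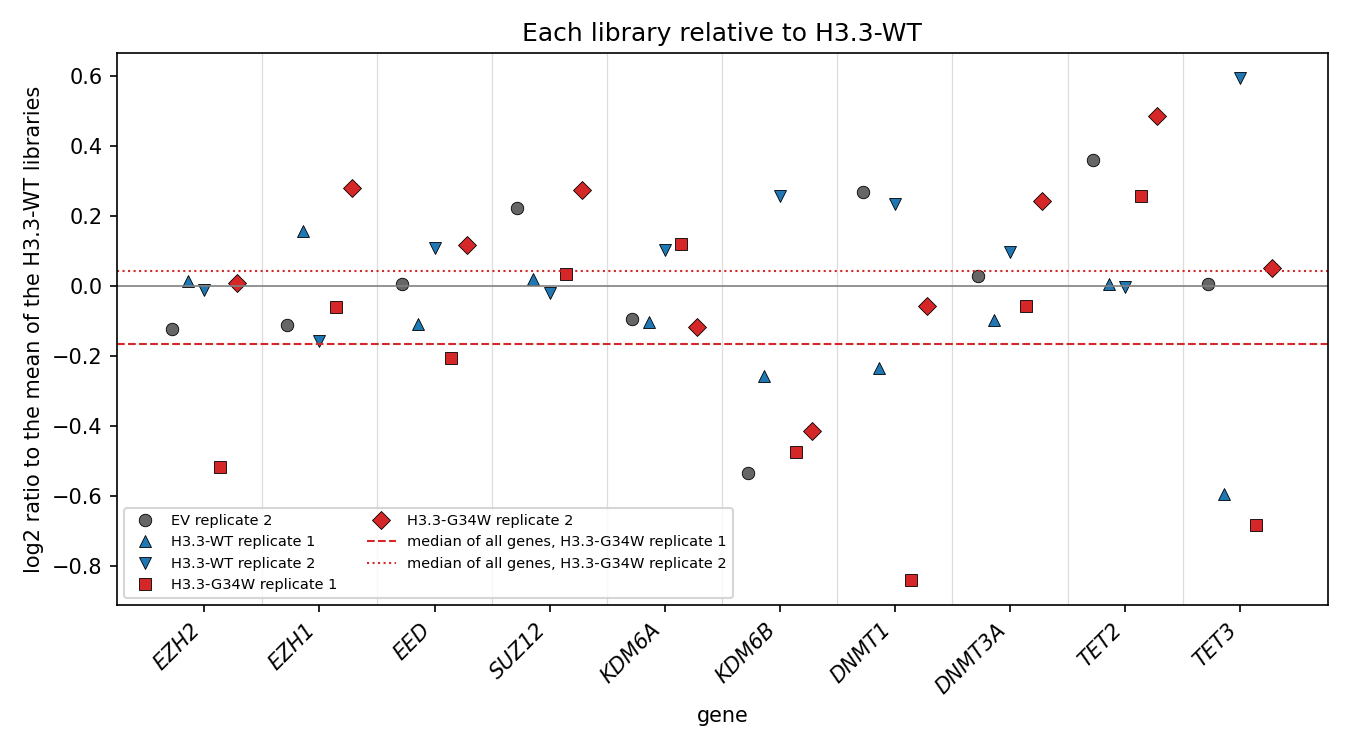
Log2 ratio of each library to the mean of the WT libraries for the 10 enzymes, with dashed and dotted lines at the medians of all genes in G34W replicates 1 and 2, -0.17 and 0.04. TET2 is above 0 in both G34W libraries and in EV replicate 2, and in G34W replicate 1 the lowest genes are DNMT1, TET3, EZH2 and KDM6B, of which TET3 is close to its value in WT replicate 1.

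The partners of these enzymes were read from lists of 53 genes, of which 51 passed the filter. In limma, 0 passed an adjusted p of 0.05 in each of the 3 comparisons. At an unadjusted p under 0.05 there was 1 between G34W and WT (ASXL2, lower), 1 of 51 where 2.70% of all genes were called, and 0 in each comparison with EV. The lists' median log2 difference between G34W and WT was -0.11, with 18 genes positive and 33 negative, against -0.06 over all genes. It turned to 0.07 without G34W replicate 1, with 33 positive and 18 negative, against 0.04 over all genes. Both G34W libraries were above both WT libraries for 5 of the 51 and below for 7, where 11.6% and 14.7% of all genes were.

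Among 10 tested accessory subunits of PRC2 the median difference was -0.06 (0.16 without G34W replicate 1), and 2 genes lay above WT in both G34W libraries, as did 11.6% of all genes. RBBP4, a histone-binding subunit, measured 5965 in EV replicate 2, 6494 and 7549.8 in WT, and 8197 and 7935 in G34W. Its log2 difference was 0.20 (SE 0.24), or 0.18 without G34W replicate 1, 0.10 without WT replicate 1 and 0.31 without WT replicate 2. PHF1, which guides the complex to chromatin, measured 135 in EV replicate 2, 183 and 164 in WT, and 199.6 and 198 in G34W, a log2 difference of 0.20 (SE 0.41), or 0.19 without G34W replicate 1 and 0.12 without WT replicate 2. For both genes EV replicate 2 was the lowest library. EZHIP, an inhibitor of PRC2, was listed at 0.

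PRC1, the complex that places ubiquitin on histone H2A, was read with the enzymes that remove this mark as 22 genes, with a median of -0.11 (0.09 without G34W replicate 1), of which 2 lay above and 4 below, beside the shares of 11.6% and 14.7% of all genes. PCGF2, a subunit of PRC1, had 155 in EV replicate 2, 92.8 and 119.6 in WT, and 248 and 165 in G34W, a log2 difference of 0.94 (SE 0.46), or 0.64 without G34W replicate 1. RNF2, its ubiquitin ligase, had 823 in EV replicate 2, 915 and 904 in WT, and 1577 and 957 in G34W, a log2 difference of 0.43 (SE 0.32), which was 0.07 without G34W replicate 1 and 0.79 without G34W replicate 2. For both genes G34W replicate 1 was the highest library, and for RNF2 replicate 2 was only just above WT. ASXL2, a cofactor of the deubiquitinase BAP1, had 1040.2 in EV replicate 2, 1282 and 1144 in WT, and 607 and 649 in G34W. Both G34W libraries were well under the other 3 and close to each other. The log2 difference was -0.95 (SE 0.28), or -0.90 without G34W replicate 1, with an adjusted p in limma of 0.9998. CBX8, a reader of methylated H3K27, had 326 in EV replicate 2, 313 and 360.0 in WT, and 248 and 209 in G34W, a log2 difference of -0.56 (SE 0.36), or -0.68 without G34W replicate 1.

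The 6 genes of H3K27 acetylation and of the KDM6A complexes all had negative differences between G34W and WT, with a median of -0.26, where 56.9% of all genes were negative. Without G34W replicate 1 the direction turned, with 5 of the 6 positive and a median of 0.07, against 0.04 over all genes. In the 5 libraries, 1 of the 6 lay below in both G34W libraries, where 14.7% of all genes did. CREBBP, an acetyltransferase for H3K27, measured 1521 in EV replicate 2, 1244 and 1485 in WT, and 746 and 1211 in G34W, a log2 difference of -0.52 (SE 0.31), which was -0.17 without G34W replicate 1 and -0.87 without G34W replicate 2. The gap to WT was wide in G34W replicate 1 and narrow in replicate 2. Against EV, 5 of the 6 were negative in WT, with a median of -0.07 (0.02 over all genes), and 5 in G34W, with a median of -0.14 (-0.03 over all genes). Without G34W replicate 1, 3 of the 6 were negative in G34W against EV, with a median of 0.00 (0.06 over all genes).

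Of 13 tested partners, readers and further enzymes of DNA methylation, 1 lay above and 2 below, against 11.6% and 14.7% of all genes, and the median difference was -0.05 (0.02 without G34W replicate 1). CDCA7, which works with the remodeller HELLS, had 1317 in EV replicate 2, 1387 and 1351.5 in WT, and 1479.8 and 1555 in G34W, a log2 difference of 0.15 (SE 0.26), or 0.18 without G34W replicate 1. MBD2, a reader of methylated DNA, had 2525 in EV replicate 2, 2211 and 2379.9 in WT, and 1679.5 and 1906 in G34W, a log2 difference of -0.36 (SE 0.25), or -0.27 without it. UHRF2, a relative of the DNMT1 partner UHRF1, had 2986 in EV replicate 2, 2625 and 2458 in WT, and 2261 and 2236 in G34W, a log2 difference of -0.18 (SE 0.24), with or without that library. For MBD2 and UHRF2 the G34W libraries were the lowest of the 5 and EV replicate 2 the highest.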

How the data were processed

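Poly(A) RNA was sequenced from 2 libraries each of EV, WT and G34W. The study's methods name a directional kit for these cells, and a further section describes libraries made after an Illumina TruSeq guide. The deposited values are a signal, estimated counts that the authors made with kallisto against GRCh38 and normalised with DESeq2; tool versions are not given in the sources used here. Sums of these values do not give depth, which is unknown. Genes with a mean of at least 10 over 5 libraries (16259) were fitted with limma 3.58.1 in R 4.3.3 on log2(value + 1) with a variance trend, two-sided, with Benjamini-Hochberg adjustment over all genes and a threshold of 0.05. Folds of low genes are understated on this scale. The fit was tested on simulated data in which each gene had the same spread in every library. That test therefore does not cover a library that stands apart, as G34W replicate 1 does. Transcript lengths came from GENCODE 44, and coordinates and promoters from RefSeq. The 10 enzymes were always named, with DNMT3B, DNMT3L and TET1. From each partner list, any gene past the threshold was to be named, and otherwise up to 2 with the highest and 2 with the lowest differences among those whose G34W and WT libraries did not overlap. The members and lists were chosen with earlier results of these data known. Alternatives were another scaling, pseudocount, filter and variance prior, a replicate block, EV replicate 1 included, and each library left out.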

Additional observations from a re-analysis of the deposited data

Results flagged for a closer look

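EV replicate 1, which entered only the alternative that included it, listed EED at 36048, against 1451 in EV replicate 2, and TET1 at 7583, against 298. In the same library MKI67 was listed at 96551, against 2665, and CDK1 at 108257, against 5606, genes named after their values were seen. Of the 18 proliferation genes, 11 were listed at 0 in EV replicate 1, TOP2A among them. The rest apart from MKI67 and CDK1 were lower than in EV replicate 2, such as AURKA at 2426 against 6325. The cause was not tested.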

How the results depend on the processing

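Alternatives for the unadjusted counts, the partner genes' differences, the lists' medians and the positions were added after seeing the data. The count of the 10 enzymes past the threshold was 0 in every alternative and comparison run, and so was that of the partner lists. Over all genes it was 0 to 6 between G34W and WT, 0 to 4 between WT and EV and 0 to 1 between G34W and EV with 1 library left out, and 1 in each comparison with EV at a pseudocount of 0.1. Leaving out EV replicate 2 gave no comparison with EV. Unadjusted counts between G34W and WT were 439 in the fit reported, 258 without G34W replicate 1, 1497 without G34W replicate 2, 281 without WT replicate 2, 791 with all genes above 0 and 13 with EV replicate 1 included. Those between G34W and EV were 317, and 1295 without G34W replicate 2, 1017 with all genes above 0 and 76 with EV replicate 1 included. Those between WT and EV were 157, and 109 to 270 with 1 library left out, 917 with all genes above 0, 377 without the variance trend and 40 with EV replicate 1 included. Leaving out G34W replicate 2 left G34W and EV at 1 library each, so only the WT libraries gave the spread. DNMT1 then differed by -0.84 against WT and by -1.11 against EV. DNMT3B, outside the 10, differed by 4.75 and 4.59. The EZH2 to EZH1 difference ran from -0.51 to -0.22. The enzymes' medians ran, with 1 library left out, from -0.13 to 0.085 between G34W and WT, -0.12 to 0.085 between WT and EV and -0.15 to 0.11 between G34W and EV, and all-gene medians from -0.17 to 0.042, -0.037 to 0.084 and -0.13 to 0.063.

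With 1 library left out, differences between G34W and WT that turned sign ran from -0.061 to 0.28 for EZH1, -0.52 to 0.0072 for EZH2, -0.20 to 0.12 for EED, -0.12 to 0.12 for KDM6A, -0.059 to 0.24 for DNMT3A, -0.91 to 0.28 for TET3, -0.30 to 4.75 for DNMT3B and -0.18 to 1.10 for TET1. EED turned to 0.018 after rescaling. Those between WT and EV ran from -0.046 to 0.27 for EZH1, -0.11 to 0.10 for EED, -0.0075 to 0.20 for KDM6A, -0.13 to 0.068 for DNMT3A and -0.60 to 0.59 for TET3. Those between G34W and EV ran from -0.39 to 0.13 for EZH2, -0.21 to 0.11 for EED, -0.19 to 0.051 for SUZ12, -0.021 to 0.22 for KDM6A, -0.088 to 0.21 for DNMT3A, -0.10 to 0.12 for TET2 and -0.69 to 0.047 for TET3.

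Neither the labels nor the methods say whether same-numbered libraries shared a batch, so the fit reported did not pair them. The deviations of same-numbered G34W and WT libraries correlated at 0.0945 across 16259 genes. With so few libraries this value cannot show that they were unpaired. With the replicate block 0 genes passed in each comparison, and unadjusted counts were 715, 369 and 275, with DNMT1 alone of the 10 enzymes, and DNMT3B, among the first. The enzymes' medians then were 0.11 between WT and EV and 0.087 between G34W and EV, against 0.091 and 0.051 over all genes. With the block, differences between WT and EV turned to 0.13 for EED, 0.045 for DNMT1, 0.095 for DNMT3A and 0.47 for TET3, and those between G34W and EV to 0.085 for EED and 0.16 for TET3.

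With EV replicate 1 included, differences between WT and EV turned to 5.43 for SUZ12, 3.64 for DNMT1, 4.74 for DNMT3A, 2.24 for TET2 and 4.52 for TET3, and those between G34W and EV to 5.41 for EZH2, 5.59 for SUZ12, 3.19 for DNMT1 and 4.20 for TET3. The all-gene medians then were 3.21 and 3.33, since that library was listed at 0 for most genes. For the other turns of sign the cause was not tested. With 2 libraries a group, and 1 for EV, small differences may have been missed.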
